A study of Mus musculus with 2 samples.

Results

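Mediator and the ATP-dependent chromatin remodellers are large complexes through which transcription factors act on promoters. The data are ChIP-seq peak lists for ELF1, a transcription factor of the ETS family, and they show where ELF1 was found at the genes that encode those complexes. Members were all protein-coding genes whose symbol matches the Med, Cdk8, Cdk19, Ccnc, Smarc, Arid1 to Arid5, Chd1 to Chd9, Ino80 and Brd1 to Brd9 names. The names gave 80 of 21900 protein-coding RefSeq genes, of which 78 were assigned to a complex. Brd3os and Brd8dc match by name and are not subunits. The cells were CH12.LX, a B-cell lymphoma line of mouse from a female animal of strain B10.H-2aH-4bp/Wts, with no treatment in the labels. There were 2 biological replicates in 1 group and no second condition. Both came from that line, which stands for 1 animal, so the values below describe 1 cell line and were not tested between samples.

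Mediator links activators bound to DNA with RNA polymerase II. Its head and middle modules contact the polymerase, its tail module meets activators, and a detachable kinase module regulates it. The BAF (SWI/SNF), ISWI, CHD and INO80 families are remodellers that move, evict or exchange nucleosomes with the energy of ATP, and bromodomain proteins such as the BET family read acetylated histones. ELF1 is abundant in lymphoid cells, and ETS factors recognise a GGAA core, most often within CCGGAAG.

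A ChIP-seq peak is a place where fragments brought down by the antibody pile up, and its summit is the highest point. The mm10 files held 29086 optimal peaks and 27399 conservative peaks, both called on both replicates together, and 300000 relaxed entries for each replicate. The older mm9 list held 18804 peaks of both replicates together. A gene was counted as bound when a summit lay within 1 kb of its start. For mm10 the start was the RefSeq 5′ end and for mm9 any GENCODE M1 transcript start. Signal is the caller's own peak height. Its scale is not given, so it ranks peaks within a list, and values of the 2 replicates are set side by side only as a description, and read depth is unknown. The B cell markers Cd79a, Cd79b, Ms4a1, Pax5 and Ebf1 were bound, and none of 5 T cell and none of 5 myeloid markers was.

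The DNA under the strongest peaks is shown first, for 1 gene of each Mediator module and each other complex, chosen as the member with the highest mm9 signal, Ino80c and Brd8 aside. The sequences are from NCBIM37 (mm9), reach at most 50 bases to each side of the summit, are written along the gene's own strand, and are shortened where they would run further into a transcribed leader. Capitals mark CCGGAA on either strand (read as TTCCGG on the other). Where the printed stretch holds none, they mark the GGAA core (TTCC on the other strand). Mediator comes first. Med11 lies at chr11:70265346-70265446 (plus strand), Med15 at chr16:17723011-17723079 (minus strand), Med7 at chr11:46250398-46250456 (plus strand), Med27 at chr2:29202229-29202329 (plus strand) and Cdk19 at chr10:40069044-40069073 (plus strand).
Med11: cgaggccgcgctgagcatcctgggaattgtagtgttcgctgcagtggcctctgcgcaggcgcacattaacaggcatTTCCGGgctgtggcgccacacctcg
Med15: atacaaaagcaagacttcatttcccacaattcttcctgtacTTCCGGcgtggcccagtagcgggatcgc
Med7: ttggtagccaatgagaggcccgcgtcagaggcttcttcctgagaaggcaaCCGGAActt
Med27: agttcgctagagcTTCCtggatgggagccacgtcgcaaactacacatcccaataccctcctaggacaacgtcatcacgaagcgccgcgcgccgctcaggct
Cdk19: ctcttgaactacatTTCCcagaatggctcg

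The other complexes are shown by Smarcc2 at chr10:127895523-127895623 (plus strand), Smarcad1 at chr6:64992764-64992793 (plus strand), Chd1l at chr3:97414121-97414221 (minus strand), Ino80b at chr6:83075128-83075157 (minus strand), Brd2 at chr17:34259686-34259786 (minus strand) and Arid3b at chr9:57684753-57684853 (minus strand).
Smarcc2: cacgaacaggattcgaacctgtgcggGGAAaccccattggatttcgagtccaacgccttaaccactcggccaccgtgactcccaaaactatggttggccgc
Smarcad1: gcggcgcgccggcctgtcaagcTTCCtcct
Chd1l: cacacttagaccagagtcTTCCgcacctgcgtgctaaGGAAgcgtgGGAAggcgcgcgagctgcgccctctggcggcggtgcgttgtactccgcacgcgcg
Ino80b: cggttattttgctggaTTCCgttcTTCCgc
Brd2: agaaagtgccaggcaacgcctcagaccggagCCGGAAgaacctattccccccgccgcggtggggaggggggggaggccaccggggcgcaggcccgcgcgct
Arid3b: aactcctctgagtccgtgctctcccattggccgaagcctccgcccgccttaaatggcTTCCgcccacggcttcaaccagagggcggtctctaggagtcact
The full CCGGAA word is printed for Med11, Med15, Med7 and Brd2, and a GGAA core alone for the rest. The whole summit windows of Ino80b and Smarcad1 also hold CCGGAAG, in the bases not printed. The Smarcc2 window differs from the others in kind, because it lies in a tRNA gene (described with the BAF genes).

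ELF1 was found at the promoters of most of these genes. On mm10, 62 of 80 members were bound (77.5%, 95% exact binomial interval 66.8% to 86.1%), against 8350 of 21238 other genes (39.3%, 38.7% to 40.0%). Over all 21318 protein-coding genes scored, members included, the share was 39.5%. On mm9, 60 of the 78 members with a GENCODE entry were bound (76.9%, 66.0% to 85.7%), against 8163 of 22289 other genes (36.6%, 36.0% to 37.3%) and 36.8% of all genes. Members had a median of 4.5 GENCODE starts and other genes 2. With the gene's outermost 5′ end alone, 58 members (74.4%) were bound on mm9, against 34.3% of all genes. Intervals cover counting error only, and genes that share a peak or a region are not independent.

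Promoter windows of members were more often CpG-rich than those of other genes. CpG-rich promoters are those where the CpG dinucleotide occurs nearly as often as base composition predicts. Of 76 RefSeq promoter windows of members (GRCm38.p6, 250 bases before to 50 after a start), 66 (86.8%) had an observed over expected CpG ratio of at least 0.6, against 48.0% of 20969 windows of other genes. Within these CpG-rich windows, 54 of 66 of the members' were bound (81.8%, 70.4% to 90.2%), against 6903 of 10065 of other genes' (68.6%, 67.7% to 69.5%). Among CpG-poor windows, 4 of 10 of the members' (40.0%, 12.2% to 73.8%) and 15.8% of other genes' were bound. Over all windows, 58 of 76 of the members' and 8625 of 20969 of other genes' were bound. The difference between members and other genes was 13.2 percentage points within CpG-rich windows and 38.2 over whole genes. These 2 values are not like for like, since the first counts windows at listed starts and the second genes at their RefSeq 5′ end. Whether CpG content accounts for the difference was not tested.

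**Figure D1:**
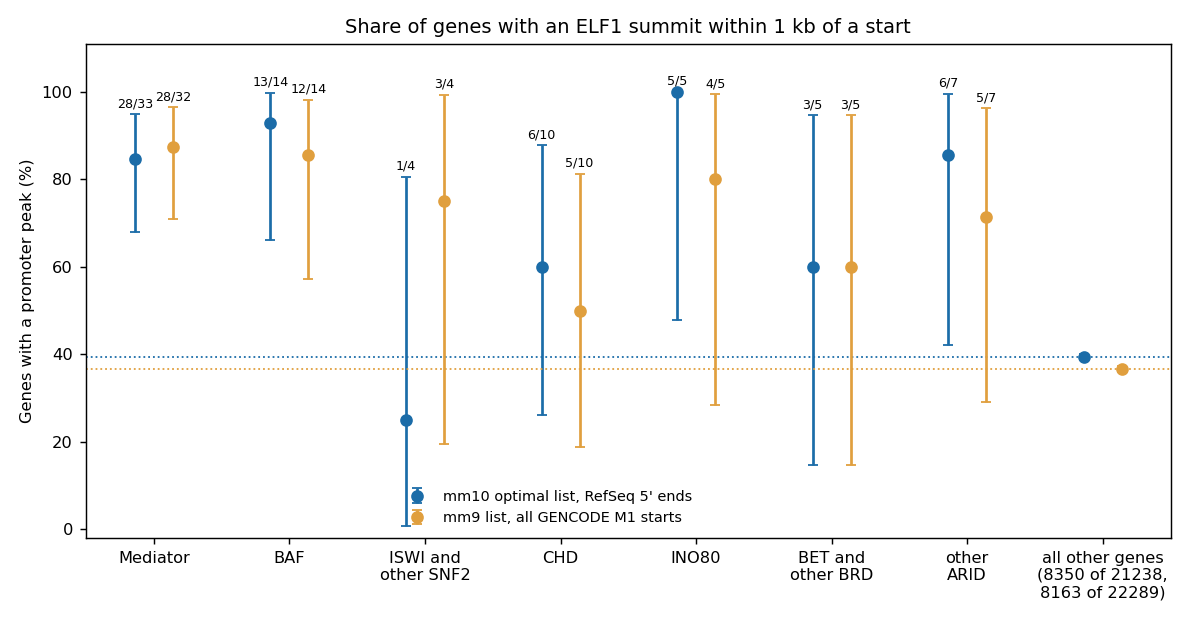
Share of genes (%, vertical axis) with an ELF1 summit within 1 kb of a start, for each complex and, at the right, all other genes; blue is mm10 and orange mm9, bars are 95% exact binomial intervals, labels are bound over scored genes, and dotted lines carry the share of other genes across. Mediator and BAF lie with their whole interval above the lines on both builds, while the intervals of ISWI and other SNF2, CHD, and BET and other BRD genes span them.

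The bound shares differed between complexes, but the intervals of all the complexes overlap on each build, so unequal coverage is not shown. Mediator had 28 of 33 genes bound on mm10 (84.8%) and 28 of 32 on mm9 (87.5%), and BAF 13 of 14 (92.9%) and 12 of 14 (85.7%). INO80 had 5 of 5 and 4 of 5, and the ARID genes outside BAF 6 of 7 and 5 of 7. CHD genes had 6 of 10 and 5 of 10, and BET and other BRD genes 3 of 5 on each build. The ISWI and other SNF2 genes had 1 of 4 on mm10 and 3 of 4 on mm9. With 4 to 10 genes, the intervals of the last 3 groups include the share of other genes on both builds, and those of INO80 (28.4% to 99.5%) and other ARID genes (29.0% to 96.3%) include it on mm9, so a difference was not detectable there. The plot of shares by complex shows these counts.

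The median peak height was also higher at members. The median optimal signal of the 62 bound members was 137.24 (quartiles 64.72 and 267.57), against 96.91 (46.83 and 200.21) for 8350 bound other genes and 39.72 for all optimal peaks. Of the members' promoter peaks, 25 of 62 (40.3%, 28.1% to 53.6%) were in the strongest 10% of the optimal list, an interval that includes the 29.7% of other genes' peaks. On the mm9 scale, the medians were 187.0 for bound members and 140.67 for bound other genes. INO80 had the highest median optimal signal among complexes with more than 1 bound gene at 271.11, followed by Mediator at 204.94, BET and other BRD at 136.29, other ARID at 118.44, BAF at 110.82 and CHD at 91.66. Within each complex with more than 3 bound genes, the lowest was at or under 32.99 and the highest at or above 331.45.

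**Figure D2:**
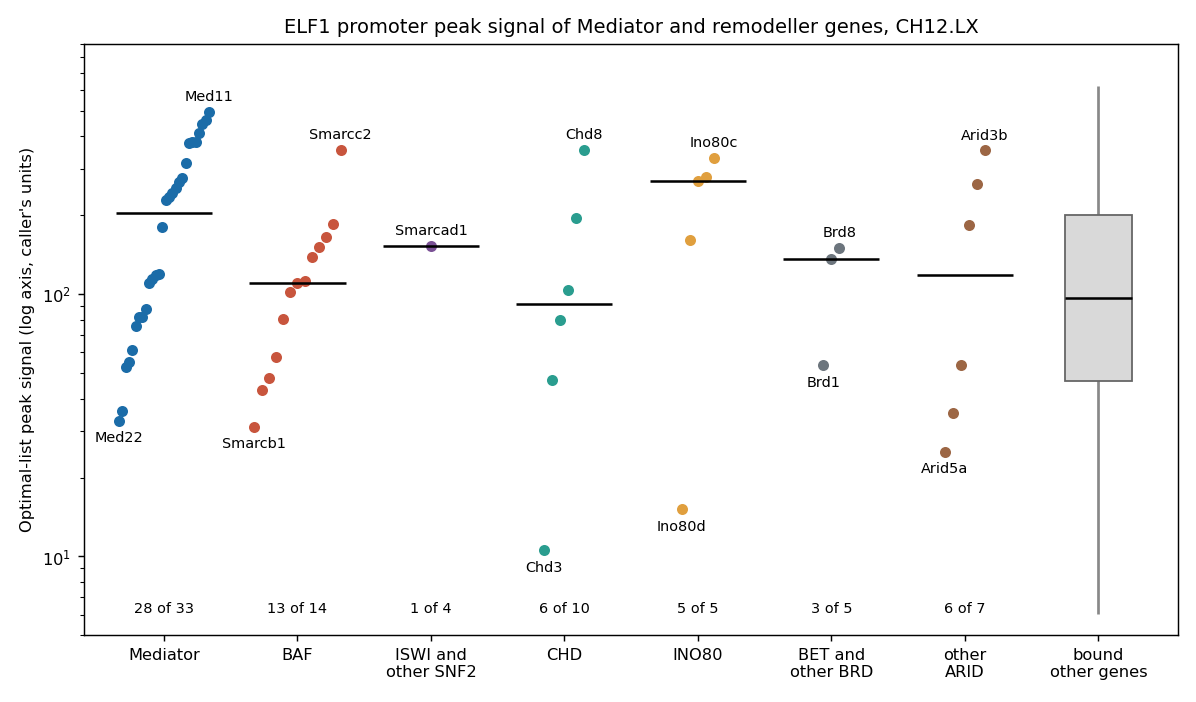
Optimal-list signal (log axis, caller's units) of each bound gene's strongest promoter peak, 1 point a gene and 1 column a complex, with the complex median as a black line; the grey box at the right gives the quartiles and median of 8350 bound other genes and its whisker their range. Mediator genes run from Med22 at 32.99 to Med11 at 497.38, and Chd3 at 10.59 and Ino80d at 15.19 are the lowest bound members.

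The head of Mediator was bound throughout on mm10 (8 of 8), with a median signal of 274.78. Med11, which pairs with Med22 in the head, had the highest signal of all members, 497.38 in the optimal list, 240.02 in replicate 1 and 257.10 in replicate 2, with its summit 19 bp upstream of the 5′ end. Med6, a head subunit that contacts the middle module, had 461.92, 223.81 and 238.47 at 16 bp upstream. Both peaks were present in both replicates. Med18, part of the movable jaw of the head, had 379.19, 164.36 and 215.94 at 7 bp upstream. Med8 (315.74), Med19 (233.82), Med17 (229.36), the scaffold of the head, and Med20 (109.90), the jaw partner of Med18, followed. Med22 had 32.99 in the optimal list, 5.64 in replicate 1 and 26.59 in replicate 2, the widest ratio between the replicates among members. The peaks of Med19, Med20 and Med22 also lay within 1 kb of the 5′ ends of Tmx2, Bysl and the ribosomal protein gene Rpl7a. Peaks alone do not tell such neighbours apart.

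The middle module and its scaffold had 8 of 9 genes bound on mm10 and 9 of 9 on mm9. Med7, which forms the hinge of the middle module with Med21, had 411.56 in the optimal list, 190.06 in replicate 1 and 221.96 in replicate 2, 10 bp downstream of the 5′ end. Med31 had an optimal signal of 276.48, Med4 268.95, and Med1, the docking subunit of nuclear receptors, 254.51. The hinge partner Med21 had 81.57, well under Med7. Med26, which recruits elongation factors, had 119.87, the scaffold Med14 113.99 and Med9 61.10. Med10 was unbound on mm10 and bound on mm9 with a signal of 381.1. Its RefSeq 5′ end lay 7.53 kb before the nearest optimal summit (signal 223.02), and that summit lay within 1 kb of another RefSeq start of the gene.

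The tail had 4 of 5 genes bound on mm10 and 5 of 5 on mm9. Med15, a tail subunit that activators such as SREBP bind, had 445.85 in the optimal list, 205.29 in replicate 1 and 244.25 in replicate 2, 32 bp downstream of the 5′ end. Med16 had an optimal signal of 180.53, Med24 87.87 and Med23, a target of the ETS factor ELK1 in human and mouse cells, 75.59. The Med16 summit lay inside the small nuclear RNA gene Gm24019. Med25, known in human cells to bind ETS factors of the PEA3 group, had no optimal summit within 1 kb, though both replicates held relaxed entries there of 20.6 and 22.81 and the conservative list and the mm9 list (signal 55.8) each had a peak. The 4 genes that join head and tail were all bound on both builds, Med30 with an optimal signal of 380.28, Med27 with 377.03, Med28 with 118.74 and Med29 with 55.35.

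The kinase module had the lowest share of bound genes among the parts of Mediator, on few genes. It had 4 of 7 genes bound on each build (57.1%, 18.4% to 90.1%), with a median optimal signal of 67.1. That interval includes the share of other genes on both builds (39.3% and 36.6%) and overlaps those of the other modules. Cdk19, one of the paired kinases, had 243.07 in the optimal list, 113.44 in replicate 1 and 133.60 in replicate 2, 25 bp upstream of the 5′ end. Its paralog Cdk8 had an optimal signal of 52.65, their cyclin Ccnc 81.55 and Med13, which tethers the kinase to the core, 35.97. Cdk19 thus stood above the other 3 bound genes in the optimal list. Med12, which activates the kinase, was unbound in the optimal and mm9 lists, with relaxed entries of 18.99 in replicate 1 and 11.28 in replicate 2 and a peak in the conservative list. The paralogs Med12l and Med13l were unbound in the optimal, conservative and mm9 lists, and no relaxed entry lay within 1 kb of the Med12l start in either replicate.

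In BAF, both ATPase genes were bound. Smarca2 (BRM) had 165.51 in the optimal list, 89.02 in replicate 1 and 76.92 in replicate 2, 5 bp upstream of the 5′ end, and Smarca4 (BRG1) had an optimal signal of 102.29. Among core subunits, Smarcd2 (BAF60b) had 185.37, 74.94 and 110.50 at 196 bp upstream, where Tcam1 also starts. Smarcc1 (BAF155) had an optimal signal of 138.19, Smarce1 (BAF57) 112.80, Smarcd1 57.51 and Smarcb1 (SNF5) 31.23. Without Smarcc2, described next, the bound core genes ran from 31.23 to 185.37. Smarce1 had 4 separate promoter peaks, more than any other bound member. Smarcd3 was the unbound BAF gene, with the nearest summit 37.7 kb away and no relaxed entry in replicate 2. All 5 genes that define the BAF variants were bound. Brd9, of non-canonical BAF, had 150.86, 53.96 and 99.32 at 1 bp upstream, where Trip13 also starts. Arid1b had an optimal signal of 110.82 and Arid1a 42.95 (canonical BAF), and Arid2 80.33 and Brd7 48.06 (PBAF).

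The highest BAF value belongs to a summit in another gene. Smarcc2 (BAF170) had 356.04 in the optimal list, 148.22 in replicate 1 and 206.46 in replicate 2, 659 bp upstream of its 5′ end, and that summit lay inside n-TScga2, a serine tRNA gene at chr10:128458464-128458545 (mm10). The mm9 window printed above holds, on the opposite strand, the B box of tRNA genes, a word sought after the position was seen. None of the other members' windows (1 of 60 with Smarcc2) and 3 of 7211 windows at other genes' promoter peaks held it (0.0416%). A second, lower peak of 31.98 lay 186 bp downstream of the Smarcc2 5′ end. Summits inside small RNA genes (tRNA, snRNA, snoRNA, miRNA and the like) were found at 2 of 62 bound members (3.23%), Smarcc2 and Med16, and at 41 of 8350 other bound genes (0.491%).

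Of the ISWI genes, Smarca1 (SNF2L) was unbound on both builds. Smarca5 (SNF2H) was unbound on mm10 and bound on mm9 at 38.7, close to the lowest signal of bound genes on that list (36.1). Its relaxed entries were 8.74 in replicate 1 and 11.73 in replicate 2, and the conservative list had a peak. Smarcad1, a remodeller that acts in heterochromatin maintenance and DNA end resection, had 153.22 in the optimal list, 76.24 in replicate 1 and 83.30 in replicate 2, 208 bp downstream of the 5′ end. Smarcal1, which re-anneals DNA at stalled replication forks, was unbound at its RefSeq 5′ end, but a peak of 75.83 lay at another RefSeq start of the gene 46.5 kb further in, and mm9 had a peak of 97.4.

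Of the CHD genes, 6 were bound and 4 unbound on mm10. Chd8 (CHD6 to CHD9 subfamily), a regulator of β-catenin targets, had 353.91 in the optimal list, 178.5 in replicate 1 and 174.66 in replicate 2, 173 bp downstream of the 5′ end. Chd1l (ALC1), a remodeller activated by poly(ADP-ribose) that carries the CHD name without a chromodomain, had 196.08, 81.46 and 111.65 at 16 bp upstream, a peak shared with Fmo5. Chd9 had 103.61, 55.5 and 47.65 at 466 bp downstream. All 3 were present in both replicates. Chd4, the main ATPase of the NuRD repressor complex, had 79.71, 31.31 and 47.57 at 32 bp downstream, and Chd7 had an optimal signal of 46.96. Chd3, another NuRD ATPase, had 10.59, in the weakest 10% of the list and absent from the conservative list. Chd1, Chd2, Chd5 and Chd6 were unbound on mm10. The nearest summit to Chd1 lay 1.25 kb away, just outside the window. Chd2 had no relaxed entry within 1 kb in either replicate. Chd5 was bound on mm9 with 74.0, at a summit 2461 bp downstream of the gene's 5′ end, within 1 kb of a later start.

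All 5 INO80 genes were bound on mm10. Ino80c had 331.45 in the optimal list, 142.56 in replicate 1 and 189.30 in replicate 2, 128 bp upstream of the 5′ end. Ino80e had 279.45, 125.13 and 154.19 at 494 bp downstream, a peak shared with Hirip3, and Ino80b had 271.11, 132.0 and 138.27 at 44 bp upstream. The ATPase gene Ino80 had 160.47, 81.0 and 80.22 at 652 bp downstream. These 4 were bound on both builds and present in both replicates. Ino80d stood apart at 15.19, with 7.97 in replicate 2, no relaxed summit within 100 bp in replicate 1 and no peak on mm9.

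Of the BET genes, Brd2 was bound and Brd3 unbound on both builds. Brd2 had 136.29 in the optimal list, 49.43 in replicate 1 and 86.64 in replicate 2, 17 bp downstream of the 5′ end. Within 1 kb of its RefSeq 5′ end, Brd3 had a relaxed entry of 2.99 in replicate 1 and none in replicate 2. On mm9 the summit nearest to any of its GENCODE starts (signal 45.4) lay 1.62 kb away, outside the window. Brd8, a subunit of the TIP60 and EP400 complex, had 150.07, 71.71 and 78.25 at the 5′ end itself, shared with Kif20a, and Brd1, a scaffold of histone acetyltransferases, had 53.70, 17.66 and 36.91 at 112 bp upstream.

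Among the other ARID genes, Arid3b had 353.54 in the optimal list, 164.01 in replicate 1 and 188.10 in replicate 2, 144 bp upstream of the 5′ end. Arid4a, which binds the SIN3 corepressor, had 263.42, 125.0 and 136.27 at 627 bp downstream. Arid3a (Bright), which binds the immunoglobulin heavy chain locus in B cells, had 183.09, 87.32 and 97.45 at 190 bp upstream. These 3 lay in the strongest 10% of the list. Arid4b had 53.80, 16.45 and 35.31 at 14 bp downstream, shared with Ggps1, and Arid5b had an optimal signal of 35.25 and Arid5a 25.12. Arid3c was unbound on both builds, as was Brd8dc, and Brd3os was unbound on mm10.

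Summits clustered at the start sites of members as they did elsewhere. The median distance from the RefSeq 5′ end was 116 bp at 62 bound members and 85 bp at 8350 other bound genes, and 30 members (48.4%, 35.5% to 61.4%) and 54.2% of other genes had the summit within 100 bp. The summit was upstream at 41 of 62 members (66.1%, 53.0% to 77.7%), an interval that includes the 53.8% of other genes. At 9 members (Cdk8, Med14, Med31, Smarce1, Chd9, Chd3, Ino80, Ino80e and Arid4a) the summit lay 300 bp or more downstream of the RefSeq 5′ end. On mm9, 8 of these 9 had the summit upstream of the nearest GENCODE start, 5 of them within 100 bp of it, and Chd3 had no mm9 peak. Another 5′ end lay within 1 kb of 12 of the 62 peaks (19.4%), against 23.7% at other bound genes.

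**Figure D3:**
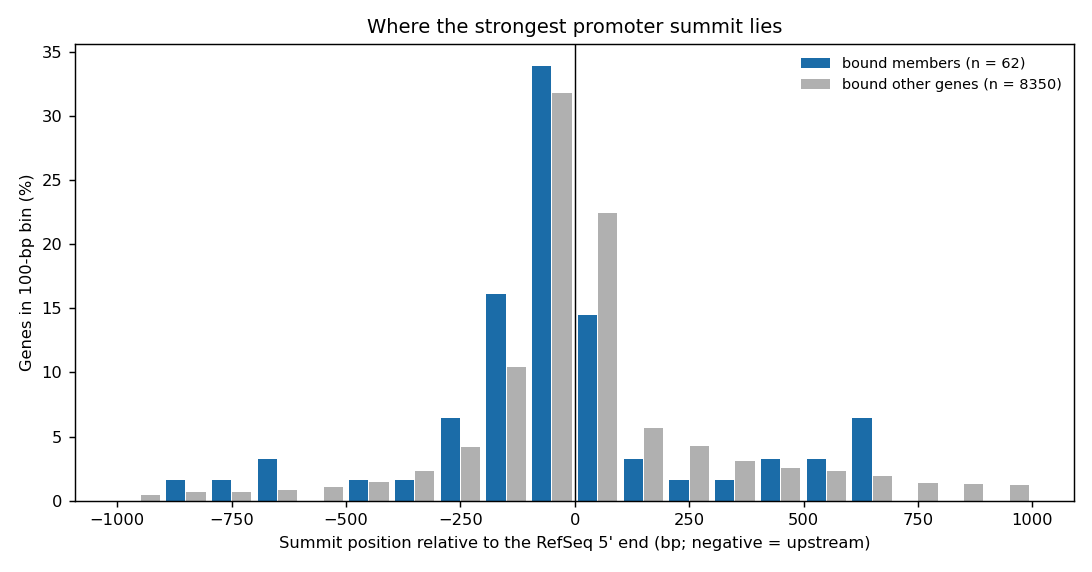
Position of the strongest promoter summit relative to the RefSeq 5′ end (bp, horizontal axis, negative is upstream) as the share of genes in each 100-bp bin (%), with bound members in blue (62) and bound other genes in grey (8350). The bin just upstream of the 5′ end is the fullest in both, at 33.9% of members and 31.8% of other genes, and the small rise of members 600 to 700 bp downstream holds 4 genes.

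The replicates gave much the same peaks at members. A relaxed summit within 100 bp of the optimal summit was present in replicate 1 at 61 of 62 bound members and in replicate 2 at 62 of 62. Both replicates had one at 61 members (98.4%), against 7806 of 8350 other bound genes (93.5%). The optimal list was made from both replicates, so this share describes the list and is no independent check. Across the 61 members, log2 signal in the 2 replicates had a Pearson r of 0.947 and signal a Spearman rho of 0.954; the points share libraries and a peak list. Signal in replicate 2 over replicate 1 had a median ratio of 1.3 (0.73 to 4.71), with Med22 the highest.

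**Figure D4:**
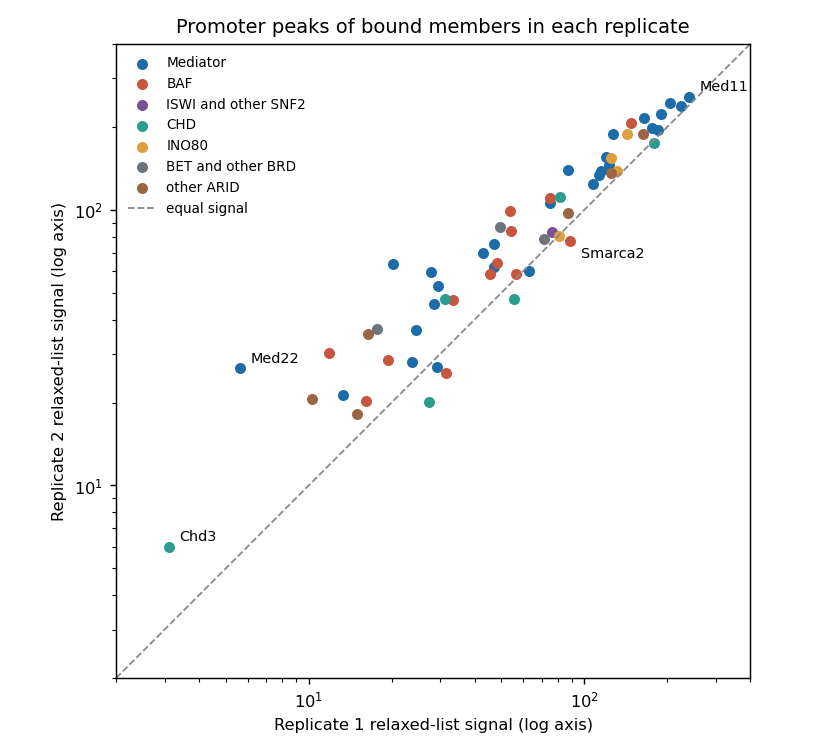
Relaxed-list signal of the promoter peak in replicate 1 (horizontal) and replicate 2 (vertical), both log axes in the caller's units, for 61 bound members, 1 point a gene, coloured by complex; the dashed line marks equal signal. Most points lie a little above the line, Med22 (5.64 in replicate 1, 26.59 in replicate 2) farthest from it, and Smarca2 below it.

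The builds gave the same status for 67 of 78 members, bound on both at 55 and unbound on both at 12. Of the other 11, Med22, Smarcb1, Chd8, Chd3, Ino80d and Arid5b were bound on mm10 alone, and Med10, Med25, Smarca5, Smarcal1 and Chd5 on mm9 alone. Med20 and Brd3os had no GENCODE entry. At Chd8 a strong peak was present on both builds and the annotated starts differed. The strongest mm9 peak near the gene, with a signal of 664.9, lay 20.1 kb upstream of the GENCODE M1 5′ end of Chd8 and 3896 bp from the near end of the neighbouring gene Rab2b, and the mm10 summit lay 3890 bp from the near end of Rab2b. Of the other 5 bound on mm10 alone, all had an optimal signal of 35.25 or less. Of the 18 members unbound on mm10, 10 had relaxed entries within 1 kb in both replicates and 4 had none in either (Med12l, Med10, Smarcal1 and Chd2). Each relaxed list holds 300000 entries, background included, and the share over all unbound genes was not counted. The 10 are therefore not read as weak binding at members.

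**Figure D5:**
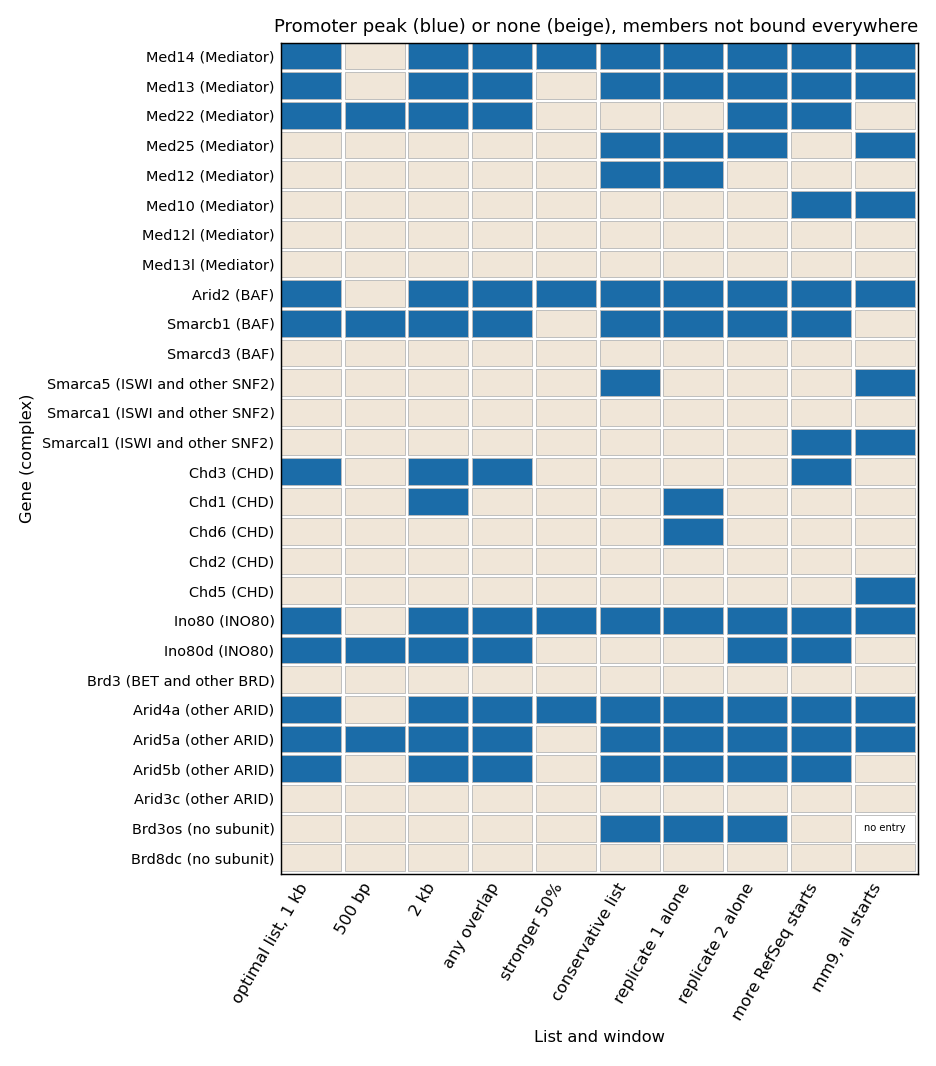
Promoter peak present (blue) or not (beige) for members that were not bound under every mm10 setting, 1 row a gene with its complex and 1 column a list or window. The columns of a replicate alone use its 29086 strongest relaxed entries, so a weaker relaxed entry leaves a gene beige there. Med12l, Med13l, Smarcd3, Smarca1, Chd2, Brd3, Arid3c and Brd8dc are beige throughout, while Med25 and Brd3os turn blue in the conservative list and in each replicate alone.

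The optimal and conservative lists did not nest. Of 27399 conservative peaks, 22761 (83.1%) had an optimal summit within 100 bp, and 78.3% of optimal peaks had a conservative one. Med12, Med25, Smarca5 and Brd3os were bound in the conservative list and not in the optimal list, and Med22, Chd3 and Ino80d in the optimal list and not in the conservative list. The status of these genes therefore depends on which deposited list is read.

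The ETS word was about as frequent under members' peaks as under other promoter peaks. Each word was looked for, on either strand, in the 50 bp to each side of the mm9 summit. CCGGAAG was present in 21 of 60 members' windows (35.0%, 23.1% to 48.4%), against 29.2% of 7211 windows at other genes' promoter peaks. CCGGAA, which CCGGAAG contains, was in 27 (45.0%, 32.1% to 58.4%) and in 40.2%, GGAAGT in 17 (28.3%) and in 35.2%, and the bare GGAA core in 55 (91.7%) and in 91.2%. The intervals for members include the share at other peaks for each of these words. Windows of members with CCGGAA had a median mm9 signal of 243.8, against 134.8 for the 33 without. By complex, CCGGAA was in 12 of 28 Mediator windows, 5 of 12 BAF, 2 of 3 ISWI and other SNF2, 1 of 5 CHD, 3 of 4 INO80, 2 of 3 BET and other BRD and 2 of 5 other ARID. Where present, the centre of the nearest CCGGAA lay a median of 15.5 bp from the summit.

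Of the words of other factors, the GC box GGGCGG, which SP and KLF factors bind, was in 33 of 60 members' windows (55.0%, 41.6% to 67.9%), against 37.2% at other promoter peaks. GCATGCGC (NRF1) was in 2 (3.33%) and in 3.05%, AAGATGGC (YY1) in 1 (1.67%) and in 2.04%, and TGACGTCA (CREB) in 0 of 60 (0.0%, 0.0% to 5.96%) and in 2.2%. Within 100 bp of the summit, GGGCGG was in 66.7% of members' windows and 55.8% of others. The GC box was thus the word with an interval that did not include the share at other peaks in the narrower window, and in the wider window the interval (53.3% to 78.3%) included it.

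In the RefSeq promoter windows, which do not depend on a summit, ETS words were more frequent in bound than in unbound windows of members. CCGGAAG was in 17 of 58 bound promoter windows of members (29.3%) and in 0 of 18 unbound ones, against 24.1% of bound and 2.92% of unbound windows of other genes and 11.7% of all windows. CCGGAA was in 27 of the 58 bound and 3 of the 18 unbound windows, those of Med12, Chd6 and Brd3. The median CpG ratio was 0.85 in bound and 0.785 in unbound windows of members, against 0.804 in bound and 0.302 in unbound windows of other genes. The members' windows differed more at the low end, where the lowest ratio was 0.466 in bound and 0.111 in unbound ones. Of the 10 windows of members with a ratio under 0.6, 4 were bound. Whether ETS words or CpG content go with binding apart from each other was not tested. Windows are starts, not genes, and 62 of 80 members had one in the table. The unbound windows include second starts of the bound genes Arid5b, Chd9, Med27 and Smarcd2 and the outer start of Med10, all with a ratio under 0.6. The low end among unbound windows thus depends on which starts are listed. The absence of a word says only that these letters are not in the window.

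Away from gene 5′ ends, 54 of 80 members (67.5%, 56.1% to 77.6%) had at least 1 distal optimal summit (between 2 and 50 kb off the gene's 5′ end, with no protein-coding gene's 5′ end within 2 kb), against 50.8% of other genes and 50.9% of all genes. Among bound genes the shares were 43 of 62 members (69.4%, 56.3% to 80.4%) and 65.4% of other genes, so the interval of the members includes the other share. Some of these summits lay at other RefSeq starts, as at Med10 and Smarcal1. With summits within 2 kb of any start in the RefSeq promoter table left out as well, a setting added after the data were seen, 47 of 80 members (58.8%, 47.2% to 69.6%) and 47.0% of other genes had one. The members then without any were Med1, Med4, Med10, Med20, Smarcc1, Chd1l and Brd3. Of the summits that were left, Brd3os had 9, Chd9 8, Smarce1 7, and Arid5a and Arid5b 6 each, and the highest signal was 266.35 at 49.7 kb downstream of the Arid1a 5′ end, within the gene. Of the INO80 genes only Ino80e had a distal summit (1 of 5). A nearby summit does not say which gene it serves.

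Other genes of the same complexes gave a like share in total. Of 71 partner genes outside the name rule, 55 were bound on mm10 (77.5%, 66.0% to 86.5%), with a median signal of 101.49, beside 39.5% of all genes. The counts were 9 of 15 for BAF, 8 of 9 for ISWI, 10 of 12 for NuRD, 8 of 9 for INO80, 12 of 16 for SRCAP and TIP60, and 8 of 10 for Mediator partners such as RNA polymerase II and P-TEFb. Gatad2a, a NuRD subunit, had 566.04, above every member, with Mbd3 at 272.06 and Mta2 at 182.32. Cdk7, the kinase of TFIIH, had 476.34, and Ccnt1 (355.59) and Cdk9 (306.23) encode P-TEFb. For INO80 the strongest were Mcrs1 (440.93), Tfpt (173.86) and Uchl5 (152.21), for SRCAP and TIP60 Ep400 (418.55), Vps72 (281.95) and Mbtd1 (241.21), for BAF Bcl7b (339.69), Actl6a (114.82) and Bcl7c (103.71), and for ISWI Chrac1 (200.70), Baz1b (103.33) and Pole3 (99.99). Baz1b had 54.03 in replicate 1 and no relaxed summit within 100 bp of its peak in replicate 2. In the optimal list the ISWI partner genes had 8 of 9 bound and the ISWI ATPase genes 0 of 2, a count too small to compare, and Smarca5 had a peak in the conservative list.

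The unbound partners were few. In BAF they were Actl6b, Dpf1 and Dpf3, which belong to the neuronal form of the complex, Bcl11b, Phf10 and Ss18. The others were Baz1a (ISWI), Mta1 and Cdk2ap1 (NuRD), Ruvbl2 (INO80), Kat5, Epc2, Znhit1 and Mrgbp (SRCAP and TIP60), and Crebbp and Nipbl (Mediator partners). Several lay just outside the window, with the nearest summit 1.03 kb from Znhit1, 1.32 kb from Ruvbl2, 1.36 kb from Ss18, 1.46 kb from Mrgbp and 1.49 kb from Kat5.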

How the data were processed

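ELF1 ChIP-seq of CH12.LX cells was deposited as peak lists for 2 biological replicates of 1 group. Per the deposited README text, each replicate's relaxed list came from its mm10 alignments and a control, the optimal and conservative lists from both replicates by the irreproducible discovery rate, and the mm9 list from both replicates. Aligner and peak caller: not given in the sources used here. The value used is the peak signal in column 7 of the deposited lists, as the authors' caller wrote it.

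Members and lists were chosen with earlier results of these data known. Each member is named with its status, the 4 strongest bound genes of a complex with replicate values, and the unbound genes. Some items that these rules name are not reported here. RefSeq genes (GRCm38.p6) gave mm10 5′ ends. Strand came from the RefSeq promoter table for 17492 genes, and by symbol (3649) or synonym (395) from GENCODE M1. Of 21900 protein-coding genes 97.3% were scored. Positions are 1-based, each in its own build; sequence came from NCBIM37 and the RefSeq table. The optimal, conservative and mm9 peaks join both replicates and members are not replicates, so shares carry 95% exact binomial intervals and no p-value. Peak placement was tested on simulated data. Alternatives were other windows, lists, overlap, start sites and either replicate alone (its 29086 strongest relaxed entries). Python 3.11.15, pandas 2.3.3, SciPy 1.17.1 and pysam 0.24.0 were used.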

Additional observations from a re-analysis of the deposited data

How the results depend on the processing

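Of 125 values computed under another setting, 122 stayed within 1.5 times the value reported and 3 did not. The bound ISWI and other SNF2 genes numbered 2 in place of 1 with the conservative list (Smarca5 added) and 2 with further RefSeq starts (Smarcal1 added), a setting chosen after seeing the data. Members with a distal summit numbered 35 (43.8%, all genes 29.8%) within 2 to 20 kb, in place of 54, a narrower range by construction. Bound members numbered 55 (68.8%, all genes 36.3%) within 500 bp, 63 (78.8%, 42.4%) within 2 kb and 64 (80.0%, 38.9%) in the conservative list. With the 29086 strongest relaxed entries of replicate 1 alone they numbered 65 (81.2%, all genes 39.9%). With those of replicate 2 alone they numbered 64 (80.0%, 40.2%). These entries were cut by rank only, to the size of the optimal list. Across 8 mm10 settings 51 members were bound in each, 11 in none and 18 in some. On mm9 the count ran from 50 (64.1%, all genes 27.0%), with the stronger 50% of peaks, to 64 (82.1%, 38.6%) within 2 kb. No paired analysis was possible because there was 1 group and no second condition. Depth is unknown, so an unbound gene is one without a listed peak, not one shown to lack ELF1.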
